A study of Mus musculus with 2 samples.

Results

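The 42 genes described here act in the cell division cycle and were chosen by symbol from the 28692 genes of a mouse liver immune single-cell series. They fall into 16 genes of DNA replication and S phase, 22 genes of G2 and mitosis, and 4 genes, Stmn1, Hmgb2, Tubb5 and H2afz, that are also present in cells that do not divide. The 16 and the 22 are called the 38 core members below. All 42 symbols were found.

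Mononuclear cells were isolated from livers of C57BL/6 mice 14 days after injection into the spleen, either of PBS (control, labelled as having no tumor) or of 500000 MC38 cells, a mouse colon carcinoma line that seeds tumors in the liver, with removal of the spleen. Per the labels, hepatocytes were depleted by slow spins, mononuclear cells were taken from a density gradient, and 3 mice were pooled into each library of the 10x 5′ kit. Protocol text shared by both samples also names a subcutaneous injection of 3000000 MC38 cells and does not say which mice received it, and the control's title carries the letters SC, so whether the control mice carried a tumor under the skin is not known. The labels do not state age or sex. There was 1 library per group, so no test between the groups was possible; intervals cover counting error only.

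A cell that commits to division first turns on E2F-driven genes for DNA synthesis: the Mcm2 to Mcm7 helicase subunits, the sliding clamp Pcna, the origin licensing factor Cdc6, the E-type cyclins Ccne1 and Ccne2, and enzymes of nucleotide supply such as Rrm1, Rrm2, Tyms and Tk1. In G2 and mitosis it makes Cdk1 with its cyclins, the Aurora and Polo kinases, spindle motors such as Kif11, spindle checkpoint kinases such as Bub1b, and the ubiquitin machinery, Cdc20 and Ube2c, that ends mitosis. Most lymphocytes and macrophages of a resting liver are outside the cycle, and their division is a usual sign of clonal expansion or of local self-renewal.

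Many mitotic genes are known to carry the cell cycle homology region, the letters TTTGAA near the start site, which binds the MuvB complexes, together with CCAAT boxes bound by NF-Y. Many S phase genes carry E2F sites. RefSeq promoters (GRCm38.p6, 250 bases before to 50 after the start) were found for 33 of the 42 members. TTTGAA was searched on both strands and lay in 13 of 18 mitotic promoters, 1 of 13 S phase promoters and 17.9% of all 32851 promoters. CCAAT on either strand lay in 16 of 18, 8 of 13 and 37.4%, and both motifs lay in 13 of 18, 1 of 13 and 6.95%. The letters TTTGGCGC, TTTCCCGC, TTTGCCGC or TTTCGCGC on either strand, taken as E2F-type, lay in 1 of 18, 5 of 13 and 2.26%. Matches of these types can overlap each other. A match describes the letters only. The 5 stretches below run from 150 bases before to 15 after the start and are shown because the results turn on these genes: Ccnb2 (chr9:70421540-70421704, minus strand), Top2a (chr11:99024175-99024339, minus), Kif11 (chr19:37376232-37376396, plus), Hmgb2 (chr8:57511693-57511857, plus) and Mcm6 (chr1:128359691-128359855, minus). Capitals mark the motifs as they read on the gene's strand, so that TTCAAA and ATTGG are TTTGAA and CCAAT on the other strand.
Ccnb2: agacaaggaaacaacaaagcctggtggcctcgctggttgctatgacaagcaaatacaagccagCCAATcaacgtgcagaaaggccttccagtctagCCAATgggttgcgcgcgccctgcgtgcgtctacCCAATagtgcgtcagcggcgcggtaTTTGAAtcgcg
Top2a: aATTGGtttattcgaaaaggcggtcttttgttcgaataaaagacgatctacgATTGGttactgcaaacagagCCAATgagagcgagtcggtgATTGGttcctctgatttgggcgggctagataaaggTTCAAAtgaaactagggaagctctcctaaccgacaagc
Kif11: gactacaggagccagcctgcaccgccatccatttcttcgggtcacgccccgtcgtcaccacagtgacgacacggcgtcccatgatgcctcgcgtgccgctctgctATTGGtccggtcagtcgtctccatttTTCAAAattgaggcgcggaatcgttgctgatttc
Hmgb2: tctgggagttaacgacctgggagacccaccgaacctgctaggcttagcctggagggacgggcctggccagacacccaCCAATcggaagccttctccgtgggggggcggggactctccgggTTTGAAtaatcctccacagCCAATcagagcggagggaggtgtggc
Mcm6: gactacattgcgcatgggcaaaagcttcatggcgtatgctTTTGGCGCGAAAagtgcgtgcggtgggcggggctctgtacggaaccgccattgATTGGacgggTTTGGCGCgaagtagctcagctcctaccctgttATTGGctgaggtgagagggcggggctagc
The first 4 hold TTTGAA with at least 1 CCAAT, and Mcm6 holds E2F-type letters with CCAAT and no TTTGAA. Of the broad genes, only Hmgb2 and Tubb5 had a promoter to search, and Stmn1 and H2afz had none. Hmgb2 has the mitotic arrangement of letters, and Tubb5 has CCAAT without TTTGAA. Ccnb2 and Top2a, which parted in monocytes and macrophages of the MC38 liver (below), both have it.

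The control library held 14258 barcodes and 91617457 unique molecular identifiers (UMIs), and the MC38 library 19822 barcodes and 114421875 UMIs. After removing barcodes under 200 genes, over 10% mitochondrial UMIs or called as doublets, 3448 control cells (24.2%) and 11855 MC38 cells (59.8%) remained, with a median of 7773 and 4034 UMIs. The control library stood apart in quality: 74.8% of its barcodes exceeded the mitochondrial limit, against 33.3% in MC38. The leukocyte gene Ptprc had a UMI in 90.7% of the kept control cells and 58.0% of the kept MC38 cells, of which 3992 were gated as hepatocytes. The libraries shared 63 barcodes, 8 of them kept. Cells were assigned to classes by marker genes, and 7 classes reached 100 cells in both libraries. The most widely detected marker of a class, such as Trbc2 in T cells, Cd79a in B cells and Siglech in plasmacytoid dendritic cells (pDC), was in 75.6% to 100% of its cells. The least detected marker went as low as 6.10% (Ms4a7 in control monocytes or macrophages). The gate used these same markers, so the shares describe the classes and do not check them.

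Among the 7 classes of 100 or more cells, T cells carried the highest level of cell cycle RNA in both libraries. Levels are UMIs per 1000000 UMIs of the class (CPM), with exact 95% Poisson intervals. The core members summed to 2978 CPM (2935 to 3022) in the 741 control T cells and 2844 CPM (2786 to 2903) in the 442 MC38 T cells. Type 1 conventional dendritic cells (cDC1), which cross-present antigen, followed with 2613 CPM (2551 to 2677) in 179 control cells and 2119 CPM (2059 to 2181) in 169 MC38 cells. The combined class of NK cells and type 1 innate lymphocytes (NK or ILC1) was close behind, at 1978 and 1878 CPM in 297 and 202 cells. This order held in both libraries, and neighbouring classes in it did not overlap in their counting intervals within a library.

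The other classes were lower. B cells had 1369 CPM in 180 control cells and 655 CPM in 942 MC38 cells, and type 2 conventional dendritic cells (cDC2) had 770 CPM in 269 and 1081 CPM in 197 cells. In monocytes or macrophages, the core sum was 344 CPM (331 to 357) in 852 control cells and 343 CPM (338 to 348) in 4395 MC38 cells. pDC were lowest, at 191 CPM in 260 cells and 194 CPM in 118. B cells thus ranked above cDC2 in the control library and below them in the MC38 library. Cells gated as myeloid progenitors, by granule genes such as Mpo and Elane, were few (8 and 17) and carried 4711 and 5800 CPM, above each of the 7 classes. So were the 11 control neutrophils, at 4265 CPM, and the 16 MC38 cells gated as platelets or megakaryocytes, at 6045 CPM. In these 2 groups, 4 and 2 cells with at least 3 mitotic members held 99.7% and 98.4% of the core UMIs. The 148 MC38 neutrophils had 1030 CPM and the 12 control cells gated as platelets or megakaryocytes had 2391 CPM.

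**Figure D1:**
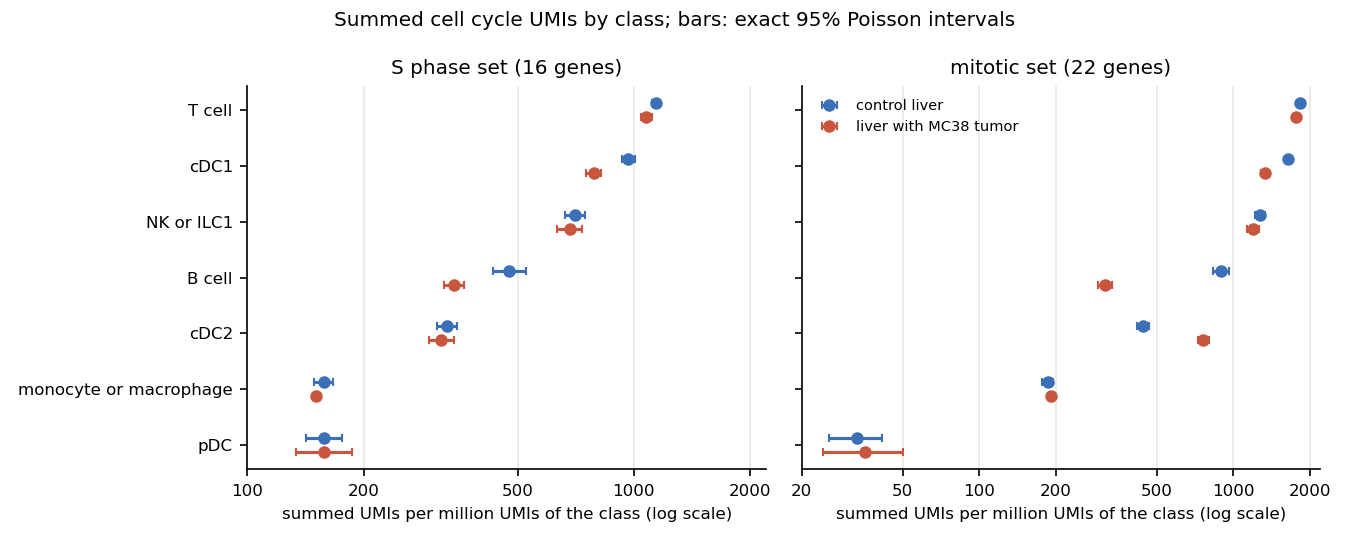
Summed UMIs of the 16 S phase members and of the 22 mitotic members in CPM of each class (log scale), for the control and MC38 libraries, with exact 95% Poisson intervals. T cells and cDC1 lie highest in both panels, pDC have S phase RNA at 158 CPM in both libraries but mitotic RNA at only 33.0 and 35.6 CPM, and cDC2 differ between libraries in the mitotic panel only.

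Single members followed this order closely. Mki67, the classic proliferation antigen, ranged from 1.39 CPM in pDC to 284 CPM in T cells of the control library and from 1.11 to 258 CPM over the same classes in MC38. Top2a, the topoisomerase that untangles sister chromatids, ranged from 3.71 to 309 CPM and from 2.23 to 289 CPM, again lowest in pDC and highest in T cells. The 38 core members had their highest level in T cells, cDC1 or NK or ILC1 in both libraries. Over the 14 points given by 7 classes and 2 libraries, Pearson's r between a member's log2 level and the log2 core sum, which contains it, was 0.997 for Top2a and 0.993 for Mki67. It was 0.462 for the transcription factor gene E2f1, the lowest of the members, and 0.643 for the histone variant gene H2afz. E2f1 went from 11.8 CPM (B cells) to 32.3 CPM (cDC1) in control and from 5.74 to 24.0 CPM over the same classes in MC38. These points share libraries and are a description only.

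**Figure D2:**
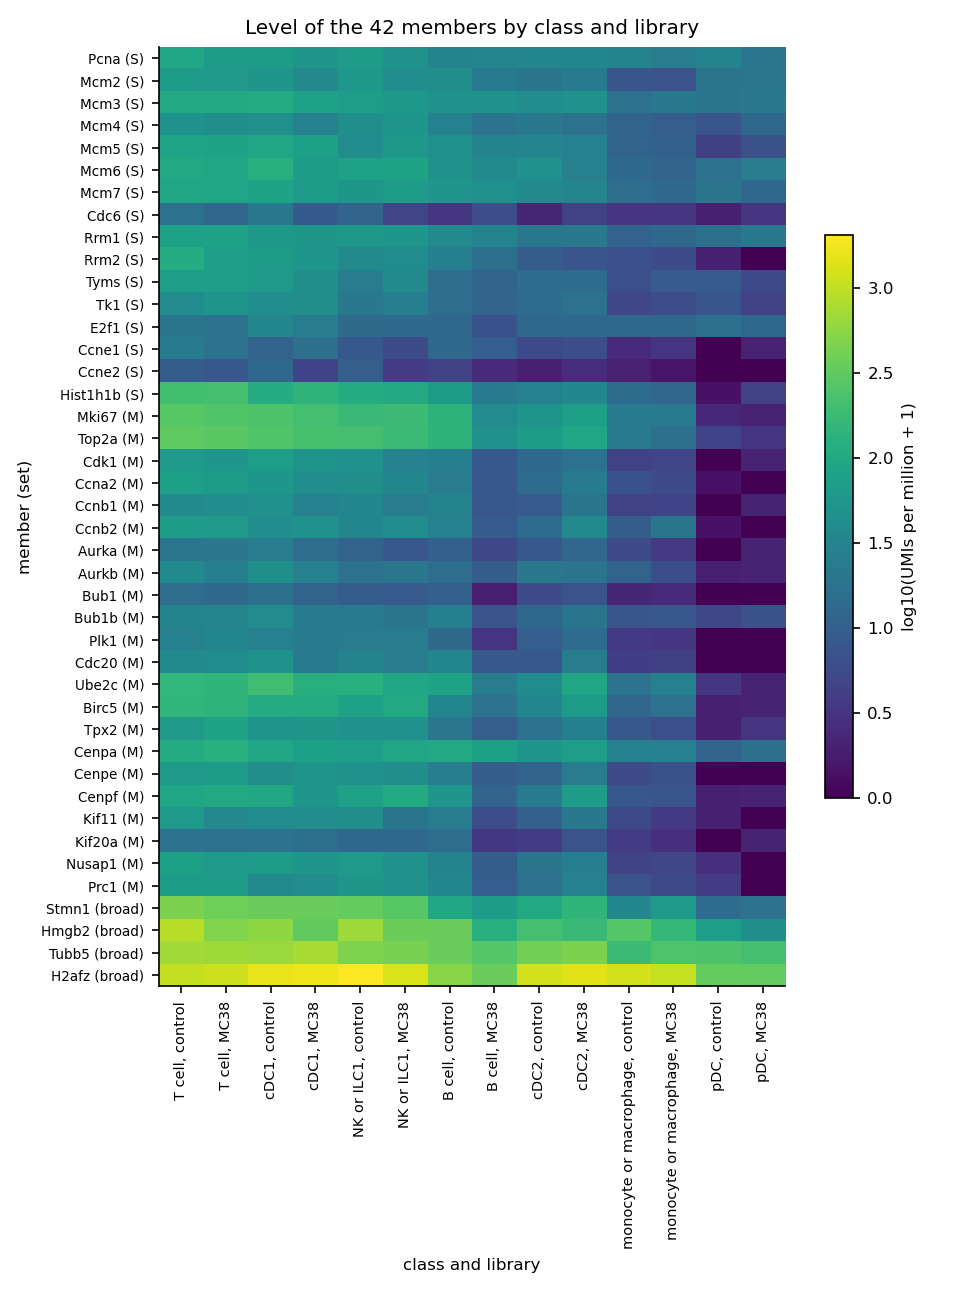
Level of each of the 42 members, as log10(CPM + 1), in the 7 classes of 100 or more cells per library, control and MC38 side by side. Mitotic members go from near 0 in pDC to their highest levels in T cells and cDC1, while H2afz and Tubb5 are high in every class.

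Most core UMIs of the high classes lay in a minority of their cells. Cells with a UMI of at least 3 of the 22 mitotic members held 90.7% of the core UMIs of control T cells and 89.5% in MC38, and 91.7% and 90.9% in cDC1. Such cells were 111 of 741 control T cells (15.0%, exact binomial interval 12.5 to 17.8) and 75 of 442 MC38 T cells (17.0%, 13.6 to 20.8). In cDC1 they were 48 of 179 (26.8%) and 46 of 169 (27.2%). In NK or ILC1 they were 6.06% and 6.93%, in cDC2 8.55% and 12.7%, and in B cells 3.33% and 2.02%. Only 1 of 260 and 1 of 118 pDC reached 3 mitotic members. In hepatocytes, which should mostly lack these genes, 0 of 87 and 16 of 3992 cells (0.401%) did, at a lower median of 1202 and 1371 UMIs. This is a range of a per-cell count and not a cell type: 34 control T cells had exactly 2 mitotic members and 13 had exactly 3.

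T cells with a Mki67 UMI held nearly all UMIs of several mitotic members. In T cells, the 131 control cells with a Mki67 UMI (of 741) held 98.2% of the Top2a UMIs, 98.5% of the Ccnb2 UMIs and 98.3% of the Ube2c UMIs. In MC38 the 80 Mki67 cells held 94.9%, 95.9% and 94.9%. Pcna, the clamp, was spread wider, with 63.7% and 63.1% of its UMIs in Mki67 cells. The Mki67 cells had larger libraries (median 13140 against 5790 UMIs in control). In cDC1 the shares for Top2a were 97.5% and 97.4%.

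S phase and mitotic RNA were present in different proportions by class. The ratio of mitotic to S phase UMIs was 1.61 and 1.64 in T cells and 1.70 and 1.69 in cDC1 (control and MC38). In pDC it was 0.209 (0.159 to 0.270) and 0.225 (0.149 to 0.333). The pDC thus held S phase RNA with little mitotic RNA. At least 3 S phase members with under 3 mitotic ones were found in 34 of 260 control pDC (13.1%) and 7 of 118 MC38 pDC (5.93%). Other control classes had such cells too, at 17.0% in T cells, 20.7% in cDC1 and 5.05% in monocytes or macrophages. No pDC of either library had at least 3 of each, against 12.8% of control T cells, 24.0% of control cDC1 and 2.11% of control monocytes or macrophages. The S phase UMIs of pDC came from genes such as Pcna (30.2 and 18.9 CPM), Mcm2 (17.6 and 18.9 CPM) and Mcm3 (17.6 and 20.0 CPM), while the replication histone gene Hist1h1b had 1 and 3 UMIs, Rrm2 had 2 and 0, and Ccne2 had none in either library. Bub1, Plk1, Cdc20 and Cenpe also had no UMI in pDC of either library.

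Over all kept cells, cell cycle RNA was lower in the MC38 library. The core sum was 1393 CPM in control and 662 CPM in MC38, a log2 fold of -1.07 (-1.09 to -1.05). A gene is called below when its level differed at least 1.5 times between libraries and the interval of the fold left out 1, among genes with at least 20 UMIs in both libraries together. Of the 38 core members, 35 were called lower and none higher, and E2f1, Ccnb2 and Cenpa were not called. The background was 21.0% of 14596 genes called lower and 17.7% called higher. Kif11, the spindle motor that pushes poles apart, went from 25.2 to 7.59 CPM (log2 fold -1.73), and Rrm2, the regulated subunit of ribonucleotide reductase, from 40.4 to 12.8 CPM (-1.66). Top2a went from 138 to 48.3 CPM (-1.52), Nusap1, a spindle microtubule binder, from 32.8 to 11.6 CPM (-1.5) and Mki67 from 126 to 48.4 CPM (-1.38). These 5 led the list, and Pcna (50.9 and 27.5 CPM) and Mcm5 (41.3 and 20.9 CPM) were called lower too.

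The makeup of the libraries differed too. T cells were 21.5% of the kept cells and held 42.9% of the core UMIs in control, and were 3.73% of the cells with 17.3% of the core UMIs in MC38. Monocytes or macrophages held 6.35% of the core UMIs in control and 33.0% in MC38, where they made up 37.1% of the cells. With each class held at its control level and weighted by its share of the MC38 UMIs, the core sum was 705 CPM, beside the 662 CPM measured. Makeup as a cause was not tested. The mitochondrial limit also set which cells were kept, so makeup and cell quality cannot be told apart here. Without a mitochondrial limit the log2 fold was -0.50, which ended the call, and with a limit of 30% it was -0.62. Within bins of mitochondrial share it was -0.99 at 0 to 5%, -1.19 at 5 to 10%, -0.77 at 10 to 20% and -0.17 at 20 to 30%, and it turned to 0.40 above 30%, the last 2 not called.

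Within T cells, which carry the antigen receptor, cell cycle RNA was nearly level between the libraries. The core sum differed by a log2 fold of -0.07 (-0.10 to -0.03), the S phase sum went from 1143 to 1077 CPM and the mitotic sum from 1835 to 1767 CPM. Of 42 members, 3 were called lower and none higher, against 6.30% of 10606 genes lower and 7.59% higher, a share near the background. The called members were Hmgb2 (906 and 479 CPM, log2 fold -0.92), Kif11 (60.1 and 35.3 CPM, -0.77, -1.08 to -0.46) and Rrm2 (111 and 71.9 CPM, -0.62, -0.85 to -0.41). Others stayed close: Mki67 was 284 and 258 CPM, Top2a 309 and 289 CPM, Mcm5 84.0 and 81.2 CPM, the microtubule destabiliser Stmn1 459 and 380 CPM, the tubulin gene Tubb5 704 and 683 CPM and H2afz 1009 and 1164 CPM. Pcna, at 92.7 and 62.9 CPM, had a log2 fold of -0.56 and was not called. Summed hepatocyte markers (9 genes, all detected) were 118 CPM in control T cells and 370 CPM in MC38 T cells; their part in these values was not tested.

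The mitochondrial limit decided the T cell comparison. With a limit of 30% the core log2 fold was 0.69, and without a limit 0.83. Rrm2 then had 0.23 and 0.39, and Kif11 0.17 and 0.32, so that their calls ended and their direction turned. Within cells of like mitochondrial share the core log2 fold was -0.30 at 0 to 5%, -0.49 at 5 to 10%, -0.10 at 10 to 20% and -0.83 at 20 to 30%, and 1.86 above 30%, where MC38 had 28 cells. The level itself went down with that share in control T cells, from 5618 CPM at 0 to 5% through 2750, 1058 and 608 CPM to 308 CPM above 30%. Of the control T cells of all bins, 57 lay at 0 to 5% and 1599 at 10 to 20%, against 110 and 183 in MC38.

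**Figure D3:**
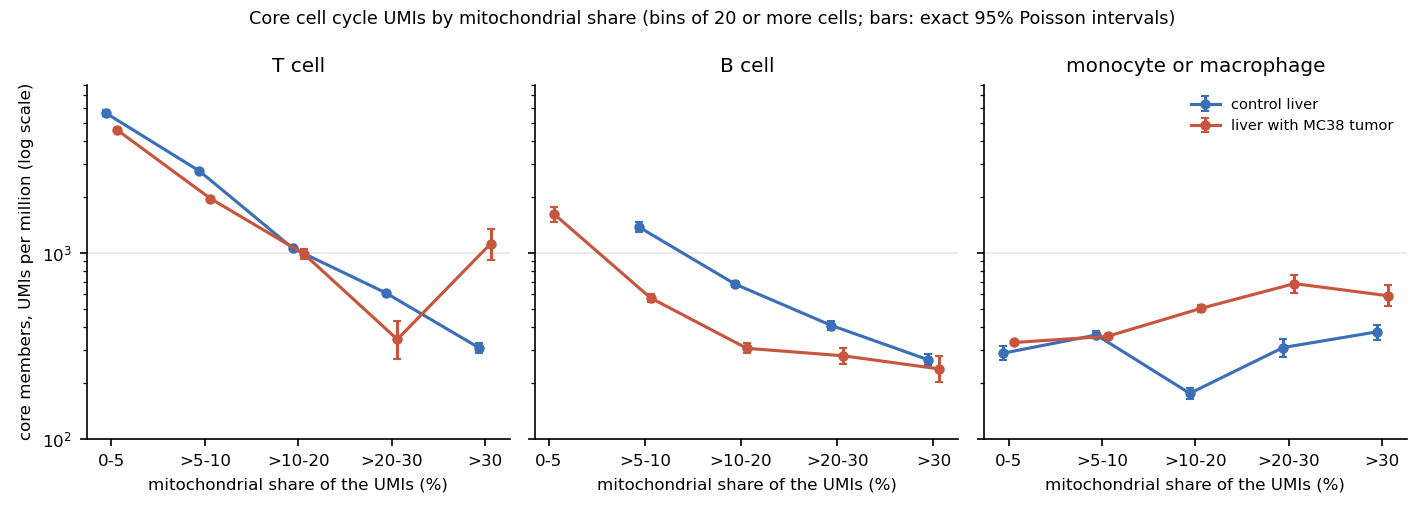
Core cell cycle UMIs in CPM (log scale) against the mitochondrial share of a cell's UMIs in 5 bins, control and MC38. T cells, B cells and monocytes or macrophages are shown, in bins of 20 or more cells, with exact 95% Poisson intervals. In control T cells the level goes from 5618 CPM in the lowest bin to 308 CPM in the highest.

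T cells with Cd8 and without Cd4 UMIs had a core sum of 4275 CPM in 201 control cells and 3379 CPM in 139 MC38 cells. Those with Cd4 and without Cd8 had 3449 CPM in 204 and 3266 CPM in 120 cells, and those with neither had 1477 and 1406 CPM. None of these 3 differences between libraries was called. The few cells with UMIs of both coreceptors, 17 and 7, had 2473 and 5017 CPM, a log2 fold of 1.02 (0.88 to 1.16) that was called higher, at a median of 22071 and 14781 UMIs. The cells with no coreceptor UMI had fewer UMIs (median 5651 in control, against 7167 with Cd8).

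Among T cells with at least 10 mitotic members, 76 in control and 48 in MC38, some members of each set were called lower in MC38. Only part of the members was read there, and the share of all genes called in these cells was not taken. The number of calls thus has no background beside it. These cells were picked by the mitotic members themselves, so the values are a description. Of the mitotic members read there, Kif11 was 256 and 120 CPM and Aurkb, the kinase of the chromosomal passenger complex, 160 and 84.7 CPM. Of the S phase members, Pcna (210 and 115 CPM), Mcm6 (207 and 135 CPM) and Rrm2 (433 and 228 CPM) were called lower, and of the broad genes Hmgb2 (2955 and 1265 CPM) and Stmn1 (1714 and 1087 CPM). Mki67 (1157 and 859 CPM), Top2a (1270 and 936 CPM), Ccnb2 (282 and 196 CPM), Aurka, Plk1, Cdc20, Ube2c, Mcm5, Tyms, Tubb5 and H2afz were not called.

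NK cells and ILC1, innate lymphocytes with cytotoxic or cytokine roles, also had level core sums, with a log2 fold of -0.07 (-0.16 to 0.01). Of the 40 members with at least 20 UMIs, 4 were called lower and none higher, beside 5.51% of 8259 genes lower and 4.90% higher. Hmgb2 was 671 and 371 CPM (-0.85), H2afz 2059 and 1345 CPM (-0.61), Kif11 42 and 18.6 CPM (-1.18) and Cdk1 45.9 and 28.3 CPM (-0.70, -1.37 to -0.05). Mki67 (177 and 186 CPM), Top2a (219 and 181 CPM), Pcna (66.6 and 48.8 CPM), Mcm5 (41.4 and 56.7 CPM), Stmn1 (335 and 280 CPM) and Tubb5 (471 and 432 CPM) were not called. The values rest on few cells: 18 and 14 cells had at least 3 mitotic members, and 5 cells held 45.0% and 55.1% of the core UMIs. With a 5% mitochondrial limit the core log2 fold was -0.34, with 30% 0.36 and with none 0.46. Cdk1 had 0.08 without a limit, and with cells thinned to 1000 UMIs Cdk1 had 0.26 and Kif11 1.16. Hepatocyte markers summed to 77.0 CPM (Cps1, of 9 genes, at 0) and 431 CPM (none at 0), and their part was not tested.

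**Figure D4:**
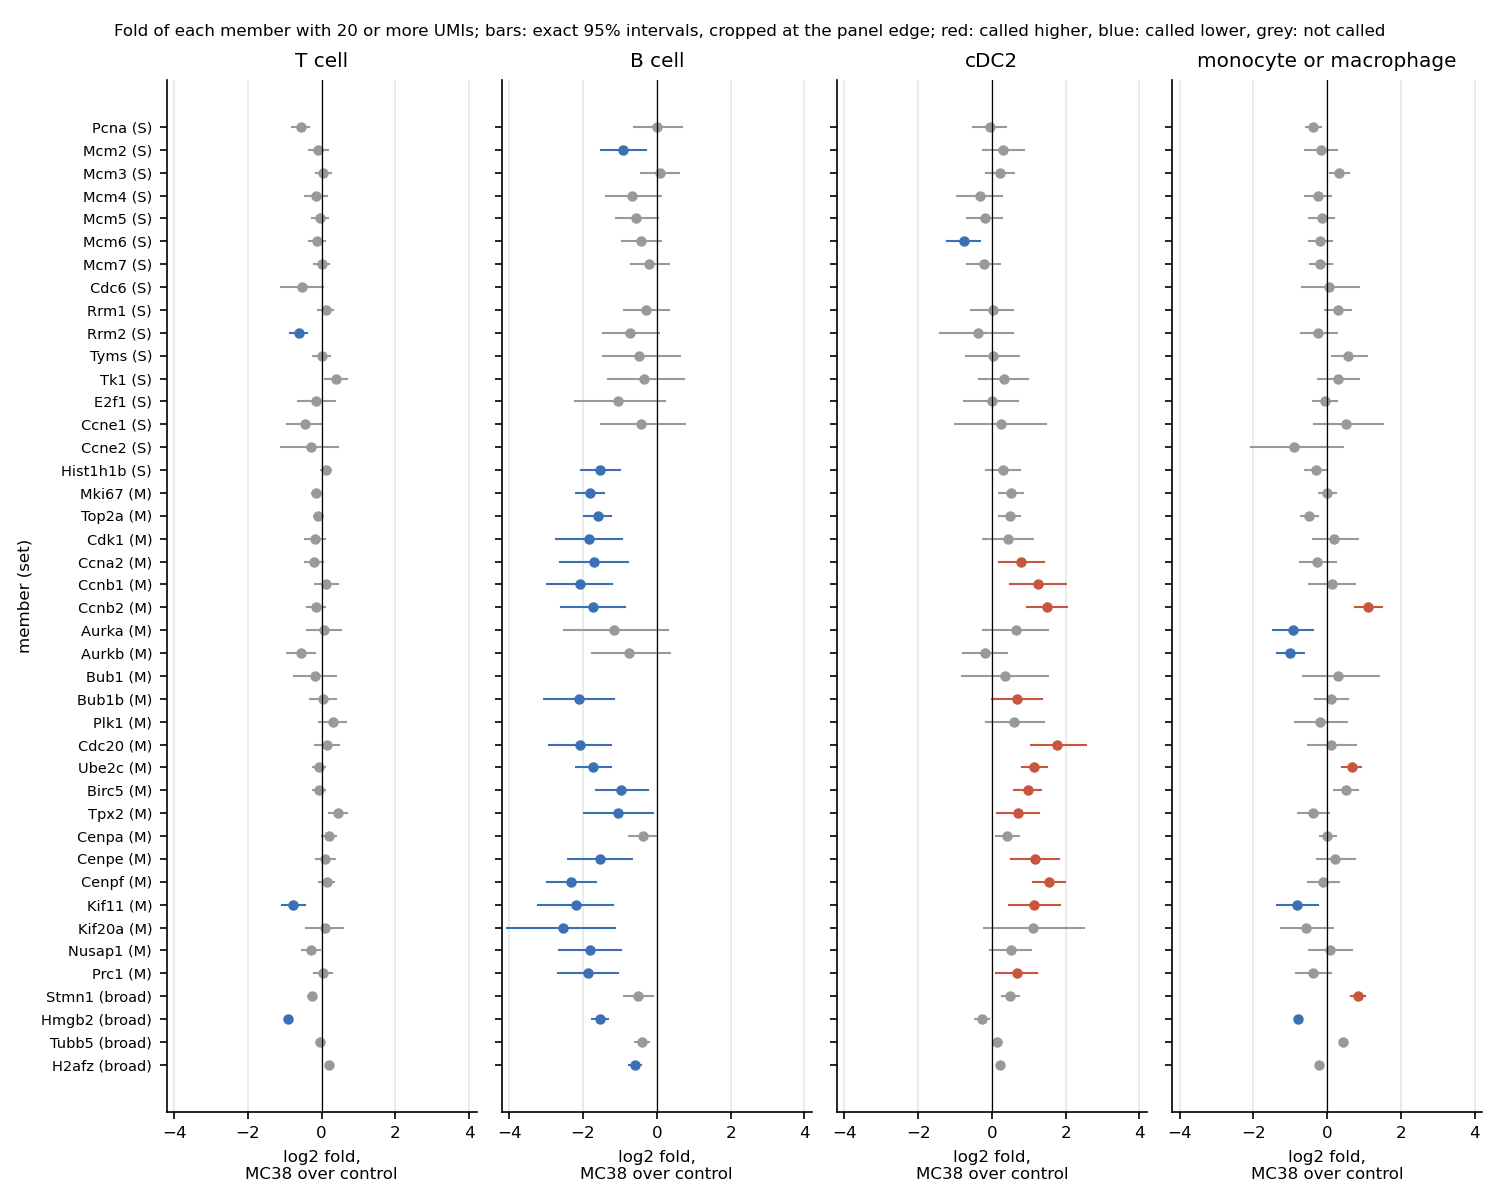
Log2 fold of each member (MC38 over control) in T cells, B cells, cDC2 and monocytes or macrophages. Members with at least 20 UMIs in both libraries together are shown, with exact 95% intervals cropped at the panel edge. Red is called higher, blue called lower and grey not called. B cells show a block of lower mitotic members, cDC2 a block of higher ones, and Hmgb2 is to the left of 0 in every panel.

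B cells had less mitotic RNA in the MC38 library. The mitotic sum was 893 CPM in control and 313 CPM in MC38, a log2 fold of -1.51 (-1.65 to -1.38), while the S phase sum was 476 and 342 CPM (-0.48, -0.64 to -0.31) and was not called. Of the 38 members with at least 20 UMIs, 21 were called lower and none higher, beside 6.71% of 8957 genes lower and 4.83% higher. They included 17 of the 20 mitotic members that reached the minimum, and Mcm2 and Hist1h1b of the S phase set. The kinetochore protein gene Cenpf was 54.3 and 10.9 CPM (-2.32), Mki67 136 and 38.7 CPM (-1.81), Hmgb2 357 and 122 CPM (-1.54), Top2a 139 and 45.9 CPM (-1.60) and Cdc20, which activates the anaphase-promoting complex, 31.9 and 7.55 CPM (-2.08). Pcna was level at 30.7 and 30.8 CPM, and Mcm5 was 44.9 and 30.5 CPM, Stmn1 94.5 and 66.8 CPM and Tubb5 359 and 271 CPM, none called. H2afz was 532 and 354 CPM (-0.59) and was called lower.

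Few control B cells carried these values. Only 6 of 180 control B cells and 19 of 942 MC38 B cells had at least 3 mitotic members. A single cell held 30.7% of the core UMIs in control, and 5 cells held 77.5%, against 9.13% and 33.7% in MC38. Without the top cell of each library the core log2 fold was -0.74, against -1.06 with it, and the mean over cells gave -0.45. With a mitochondrial limit of 30% it was -0.54 and without one -0.29, and then Mcm2 had 0.08 and H2afz 0.18 without a limit. The median of all genes lay at a log2 ratio of -0.13 in B cells. Hepatocyte markers summed to 108 CPM (Cps1, of 9 genes, at 0) in control and 513 CPM (none at 0) in MC38. Plasma cell markers (5 genes, none at 0) went the other way, with 143 CPM in control and 21.1 CPM in MC38. The part of either list in the B cell values was not tested.

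In pDC, which make type I interferon and rarely divide, only 14 of the 42 members reached 20 UMIs. Hmgb2, at 70.1 and 43.4 CPM (-0.69, -1.24 to -0.17), was called lower and no other member was called, beside 4.86% of 8520 genes lower and 4.32% higher. The core sums differed by 0.02 (-0.24 to 0.28). Tubb5 was 240 and 217 CPM, H2afz 339 and 325 CPM, Stmn1 13.5 and 16.7 CPM, and neither Mki67 (3 and 1 UMIs) nor Top2a (8 and 2) nor Mcm5 (7 and 5) had enough UMIs for a call.

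cDC1 had slightly less core RNA in the MC38 library, with a log2 fold of -0.30 (-0.36 to -0.25), which is under the size used for a call, and an equal share of cells with mitotic RNA. Of 42 members, 12 were called lower and none higher, beside 8.58% of 9259 genes lower and 6.52% higher. They were Hmgb2 (570 and 321 CPM, -0.83), the S phase genes Cdc6 (21.1 and 7.71 CPM, -1.45), Ccne2 (12.3 and 3.63 CPM, -1.77), Mcm6 (118 and 67.1 CPM, -0.81) and Mcm4, and the mitotic genes Cdc20 (47.4 and 23.1 CPM, -1.03), Ccnb1, Aurka, Aurkb, Bub1b, Ube2c and Cenpf. Mki67 (240 and 212 CPM), Top2a (257 and 225 CPM), Pcna (67.3 and 51.7 CPM), Mcm5 (87.2 and 72.6 CPM), Stmn1 (362 and 363 CPM), Tubb5 (653 and 750 CPM) and H2afz (1590 and 1696 CPM) were not called. Thinned to 1000 UMIs a cell, which leaves few UMIs, Ccnb1 (0.68), Bub1b (2.09), Cdc20 (0.51), Ube2c (0.19) and Cenpf (0.68) turned direction. With a mitochondrial limit of 30% the core log2 fold was 0.13 and without one 0.18.

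cDC2, the dendritic cells that mainly prime CD4 T cells, went the other way in the mitotic set. The mitotic sum was 441 CPM in control and 763 CPM in MC38, 1.73 times higher (1.61 to 1.86) and past the size for a call, while the S phase sum was 328 and 318 CPM. The ratio of mitotic to S phase UMIs was 1.34 (1.24 to 1.46) and 2.40 (2.2 to 2.62). Of the 40 members with at least 20 UMIs, 12 were called higher, all from the mitotic set, and 1 lower, beside 9.25% of 9659 genes higher and 9.88% lower. Cenpf was 22 and 64.2 CPM (1.54), Cdc20 7.24 and 24.7 CPM (1.77), the B-type cyclin gene Ccnb2 13.5 and 37.8 CPM (1.48), the ubiquitin-conjugating enzyme gene Ube2c 39.7 and 88.1 CPM (1.15) and Birc5, the passenger complex protein survivin, 32.4 and 63.4 CPM (0.97). The others were Ccna2, Ccnb1, Bub1b, Tpx2, Cenpe, Kif11 and Prc1. Mcm6, the helicase subunit, was lower at 46.0 and 26.9 CPM (-0.77).

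Neither Mki67 (51.3 and 72.9 CPM, 0.51) nor Top2a (62.7 and 87.2 CPM, 0.48) was called in cDC2, nor were Pcna (33.4 and 32.1 CPM), Mcm5 (30.9 and 26.9 CPM), Stmn1 (103 and 146 CPM), Hmgb2 (212 and 176 CPM), Tubb5 (409 and 452 CPM) and H2afz (1238 and 1454 CPM). Cells with at least 3 mitotic members were 23 of 269 and 25 of 197, with overlapping intervals (5.50 to 12.6% and 8.38 to 18.2%), and those with at least 10 were 7 and 11. Each library's top 5 cells held 48.9% and 54.6% of the core UMIs. With a mitochondrial limit of 5% the core log2 fold was 0.10 instead of 0.49, and Prc1 had -0.08 at that limit and -1.86 in thinned cells. Markers of mature dendritic cells (5 genes, none at 0) summed to 93.5 and 472 CPM in this class and T cell markers (8 genes, none at 0) to 319 and 58.2 CPM, and their part was not tested.

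Monocytes and macrophages, the largest class, had level core sums at the main settings, with a log2 fold of 0.00 (-0.06 to 0.06). Their top 5 cells held 35.0% of the core UMIs in control and 8.68% in MC38. Without the top cell of each library the core log2 fold was 0.13 (0.07 to 0.20), outside that interval. It was also positive at the other mitochondrial limits (below). The level sums thus depend on few control cells and on the limit. Of 42 members, 3 were called higher and 4 lower, beside 11.9% and 12.1% of 12548 genes, so that the number of calls was not above the background. The higher members were Ccnb2 (8.58 and 18.5 CPM, log2 fold 1.11, 0.75 to 1.49), Stmn1 (33.6 and 59.9 CPM, 0.84, 0.65 to 1.02) and Ube2c (17.4 and 27.6 CPM, 0.67, 0.41 to 0.93). The lower members were Hmgb2 (274 and 159 CPM, -0.78), Aurkb (10.5 and 5.26 CPM, -1.0), its relative Aurka, which builds the spindle poles (4.87 and 2.55 CPM, -0.93), and Kif11 (4.61 and 2.63 CPM, -0.81). Mki67 was 22.2 CPM in both, Top2a was 22.3 and 15.9 CPM (-0.48, not called), Pcna 30.1 and 23.3 CPM, Mcm5 10.8 and 9.69 CPM, Tubb5 183 and 248 CPM and H2afz 1225 and 1056 CPM. Cells with at least 2 Kupffer cell markers had a higher core level than the rest, 1051 and 975 CPM in 72 and 313 cells against 300 and 303 CPM. Only 9 and 35 of them had at least 3 mitotic members. Their depth was lower, at a median of 4310 and 8767 UMIs against 9124 and 11364 in the rest.

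The share of these cells with at least 3 mitotic members was 4.11% (35 of 852) in control and 9.33% (410 of 4395) in MC38. At a mitochondrial share of 0 to 5% it was 4.21% and 10.1%, and at 5 to 10% it was 4.08% and 8.61%. With every cell thinned to 1000 UMIs the shares were 1.08% (9 of 830) and 1.09% (47 of 4295). Thinning leaves few UMIs in a cell, so the thinned shares cannot decide what part depth had (median 9080 and 11301 UMIs). That part was not tested, and no difference in dividing cells is read from this share. Thinning left the difference in single genes. Ccnb2 then had a UMI in 0.120% (0.00305 to 0.669) and 1.75% (1.38 to 2.18) of the cells, Ube2c in 1.08% and 2.54% and Stmn1 in 2.05% and 3.98%, while Top2a had 0.723% and 0.582%. MC38 hepatocytes thinned alike, a type that should lack these genes, had 0.0740% for Ccnb2, 0.814% for Ube2c, 1.92% for Stmn1 and 0.444% for Top2a. Unthinned, Ccnb2 was in 2.35% and 9.40% of the cells, at 9080 and 11301 median UMIs, and in 0 and 0.225% of hepatocytes.

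Most Ccnb2 cells of the MC38 monocytes and macrophages lacked Top2a. Of the 413 MC38 cells with a Ccnb2 UMI, 58 (14.0%, 10.8 to 17.8) also had a Top2a UMI, against 11 of 20 in control (55.0%, 31.5 to 76.9). The Ccnb2 cells of both libraries had like depth, at a median of 12636 and 12435 UMIs. In T cells the share with Top2a was 92.2% (71 of 77) and 72.3% (34 of 47), in cDC1 95% and 70.8%, and in NK or ILC1 11 of 12 and 7 of 8. In cDC2 it was lower, at 5 of 11 (45.5%, 16.7 to 76.6) and 6 of 11 (54.5%, 23.4 to 83.3). The myeloid progenitors had 4 of 5 and 15 of 17. Ccnb2 cells outside monocytes and macrophages were mostly deeper. Their medians were 17141 and 13921 UMIs in T cells, 24368 and 20598 in cDC1, and 10491 and 19142 in cDC2. The part of depth in these shares was not tested. Cells with Ccnb2 and without Top2a were 355 of the MC38 monocytes and macrophages (8.08%) and 9 of the control ones (1.06%).

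**Figure D5:**
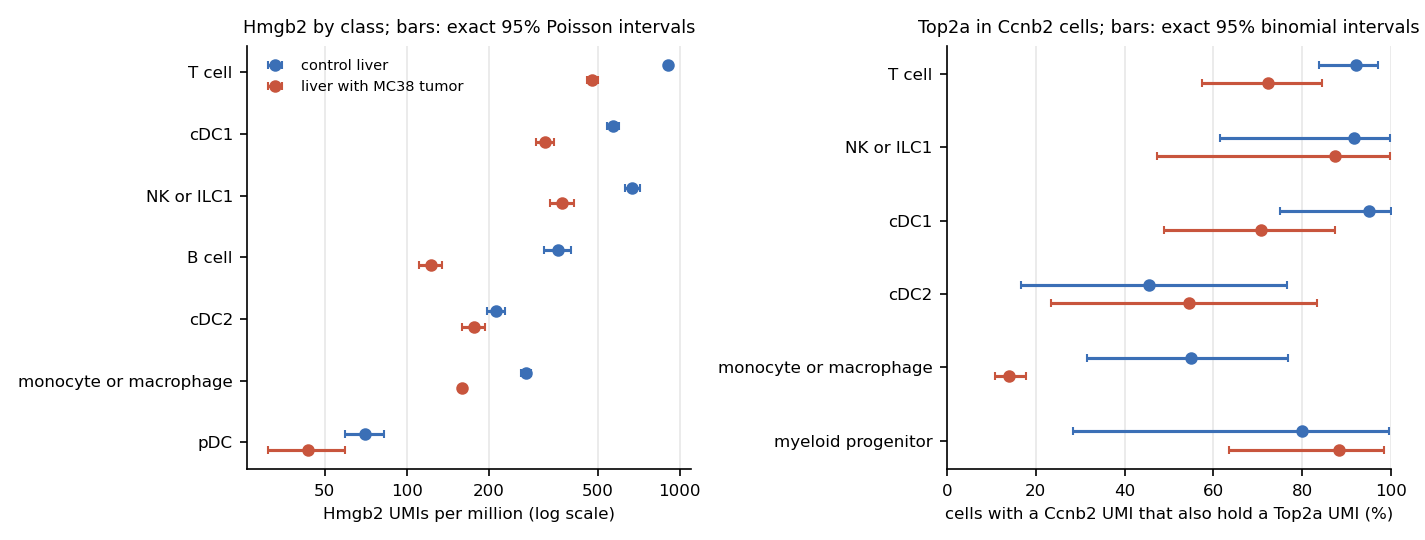
Left, Hmgb2 level of each class in CPM (log scale) with exact 95% Poisson intervals, control and MC38; right, the percentage of cells with a Ccnb2 UMI that also have a Top2a UMI, with exact 95% binomial intervals. Hmgb2 is lower in MC38 in each class, and MC38 monocytes or macrophages have the lowest Top2a share, 14.0%.

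The 355 MC38 cells with Ccnb2 and without Top2a lay between the other 2 groups in most mitotic members read. Against the 3843 MC38 cells of the class with neither gene, they had 215 against 19.7 CPM of Stmn1, 52.9 against 2.82 CPM of Birc5, 78.7 against 15.1 CPM of Ube2c and 45.8 against 7.45 CPM of Mki67. The centromeric histone gene Cenpa was 67.9 against 16.8 CPM, Hmgb2 348 against 123 CPM and H2afz 2009 against 925 CPM. Spindle genes were above the cells with neither gene as well, at lower levels: Cenpe was 14.8 against 1.30 CPM, Cenpf 13.8 against 1.81 CPM, Tpx2 7.52 against 1.0 CPM, Kif11 1.5 against 0.419 CPM and Nusap1 1.93 against 0.465 CPM. Prc1, which bundles the midzone microtubules, was 1.29 against 1.30 CPM. The 58 cells with both Ccnb2 and Top2a were higher in all of these, with Mki67 at 389 CPM, Birc5 at 302, Stmn1 at 729, Cenpe at 117, Kif11 at 74.7, Nusap1 at 119 and Prc1 at 113 CPM. Pcna was 21.7 CPM and Mcm3 17.6 CPM, against 20.7 and 17.3 CPM in the cells with neither. These cells were picked for Ccnb2 and against Top2a after the values were seen, so their values are a description.

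Genes outside the 42 that stood highest in those 355 cells over the rest included further cycle genes. H2afv was 293 against 80.4 CPM, Cdca3 54.0 against 6.89 CPM, Cdkn3 37.2 against 2.3 CPM and Cks1b 60.8 against 12.7 CPM. Granule protease genes of myeloid precursors and a gene of classical monocytes were among them too: the neutrophil elastase gene Elane was 40.4 against 9.42 CPM, the proteinase gene Prtn3 364 against 174 CPM and F13a1, coagulation factor XIII, 1069 against 532 CPM. Over the whole class, the 5 progenitor markers summed to 49.1 CPM in control, with Ms4a3 at 0, and 212 CPM in MC38, with none at 0. The 7 neutrophil markers summed to 75.8 CPM, with Ly6g and Ltf at 0, and 313 CPM, with none at 0. Hepatocyte markers (none of 9 at 0) were 110 and 232 CPM. Their part in the Ccnb2, Ube2c and Stmn1 values was not tested. Mki67 cells held 53.5% of the Ccnb2 UMIs and 38.7% of the Ube2c UMIs of MC38 monocytes and macrophages, against 83.6% and 72.1% in control, while for Top2a the shares were 82.3% and 83.9%.

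Settings moved the count of calls in this class. With a 5% mitochondrial limit 7 members were called higher, with 30% 11 and with none 10. Gate references taken from all cells gave 13, and leaving out the barcodes shared by the libraries gave 6. The share of all genes called was not taken at these settings, so these counts have no background beside them. Above 10% mitochondrial share the core log2 fold was 1.51 at 10 to 20%, 1.14 at 20 to 30% and 0.65 above 30%, while it was 0.19 and -0.02 at 0 to 5% and 5 to 10%.

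Hmgb2, a chromatin-bending protein that is abundant in dividing cells and present in others, was the member called lower in the most classes. It was called in T cells, NK or ILC1, B cells, pDC, cDC1 and monocytes or macrophages, and in cDC2 it was 212 and 176 CPM (-0.27) and not called. The difference was also present in cells without a UMI of any mitotic member. The share of all genes called in such cells was not taken, so the calls there have no background beside them. There Hmgb2 was 205 and 112 CPM in T cells, 194 and 93.9 CPM in NK or ILC1, 131 and 73.6 CPM in B cells, 69.8 and 40.2 CPM in pDC, 105 and 44.5 CPM in cDC2 and 231 and 117 CPM in monocytes or macrophages, each called lower. In such cDC1 it was 69.6 and 62.4 CPM and not called. The other broad genes varied by class in cells without mitotic UMIs. Stmn1 was called higher in T cells (17.8 and 31.0 CPM), cDC1 (15.5 and 31.9 CPM) and monocytes or macrophages (6.55 and 11.3 CPM), lower in NK or ILC1 (54.3 and 26.8 CPM), and was not called in B cells, pDC and cDC2. Tubb5 was called higher in cDC1 (182 and 337 CPM) and in monocytes or macrophages (130 and 213 CPM) and was not called in the other 5 classes. H2afz was called in none of the 7, and was 1832 and 1238 CPM (-0.57) in NK or ILC1.

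In cells thinned to 1000 UMIs, Hmgb2 had a UMI in 28.5% (25.3 to 31.9) of control and 17.4% (13.9 to 21.2) of MC38 T cells, and in 20.7% and 13.7% of monocytes or macrophages, against 1.79% (1 of 56) and 1.44% in hepatocytes. In T cells it was lower in each bin of mitochondrial share, with log2 folds of -1.44, -1.15, -0.94, -1.12 and -0.71 from the lowest bin to the highest, the last not called. In B cells they were -1.73, -1.5, -0.76 and -0.53 from 5% up, the last not called. In monocytes or macrophages they were -0.53, -0.95, -0.67, -0.80 and 0.33, the first and last not called, and in cDC1 0.43 at 10 to 20%. With no mitochondrial limit the pooled log2 fold of Hmgb2 was -0.18 in T cells, -0.37 in NK or ILC1, -0.52 in monocytes or macrophages and -0.40 in cDC1, none of them called. The mitochondrial share and the group cannot be told apart in the pooled values.

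Other genes of the cycle, outside the 42, were read from lists of known roles. Of 39 further G2 and mitosis genes, all 39 reached the minimum in T cells, where none was higher and 1 lower (median log2 fold -0.04, all genes 0.00), and the lower gene was the cohesin acetyltransferase gene Esco2 (36.5 and 21.7 CPM). In B cells 11 of 26 were lower, beside 6.71% of all genes. In cDC2 8 of 35 were higher and 1 lower, beside 9.25% and 9.88%. In monocytes or macrophages 1 of 38 was higher and 8 lower, beside 11.9% and 12.1%. In the last class the higher gene was Cdca3 (6.4 and 15.3 CPM), and Racgap1 and Kif23, the pair that forms centralspindlin at the midzone, were lower (55.7 and 15.2 CPM, 12.3 and 4.73 CPM). Of 33 further S phase genes, 1 was lower in T cells, Brip1 (18.1 and 10.2 CPM), a helicase of DNA repair. In monocytes or macrophages 3 were higher, led by Gmnn, the licensing inhibitor geminin (17.7 and 31.2 CPM), and Gins2 (2.95 and 5.0 CPM), and 4 were lower, led by Uhrf1 (4.61 and 2.35 CPM) and Hells (6.4 and 3.59 CPM), numbers near or below the background of that class. In B cells and cDC2 the calls of the mitosis list mostly had the direction of the members' calls. Both were read in the same cells, so this is not separate evidence. In control B cells 5 cells held 77.5% of the core UMIs, and in cDC2 5 cells held 48.9% and 54.6%.

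Lists of genes upstream of the cycle were read in T cells beside the background of 7.59% of all genes higher and 6.30% lower; each list is short, and no list was tested against the others. Of 7 genes of D cyclins and their kinases, Cdk6 was higher (52.9 and 165 CPM, log2 fold 1.64) and Ccnd2 (773 and 462 CPM, -0.74) and Cdk2 (9.04 and 3.10 CPM, -1.54) led 3 lower ones. Of the 7 cyclin-dependent kinase inhibitors with 20 UMIs or more, the p53 target Cdkn1a was higher (12.3 and 26.3 CPM) and Cdkn2c lower (26.6 and 17.0 CPM). Of 8 such Myc and growth genes, the polyamine enzyme gene Odc1 (84.1 and 186 CPM) and the pyrimidine enzyme gene Cad (19.1 and 36.9 CPM) were higher and none lower. Of 9 quiescence genes, Pik3ip1 was higher (34.8 and 63.2 CPM) and 3 were lower, led by Tob1 (18.6 and 6.51 CPM) and Btg2 (218 and 121 CPM). Of 16 such RB, E2F and DREAM genes 1 was called, a share near the background: E2f7 was lower (9.20 and 3.72 CPM). The replication histone gene Hist1h2ap was lower (162 and 52.7 CPM), as was Hist1h4c (3.94 and 0.929 CPM).

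In monocytes or macrophages, where 11.9% of all genes were higher and 12.1% lower, Odc1 (17.2 and 36.3 CPM) and the polyamine enzyme gene Srm (15.0 and 29.0 CPM) were higher, and Ccnd2 (58.5 and 30.7 CPM) and Ccnd1 (38.3 and 23.4 CPM) lower. The phosphatase gene Cdkn3 was higher (2.31 and 7.06 CPM) and Cdkn1c lower (1.66 and 0.687 CPM). Of 9 quiescence genes, none was higher and 4 were lower, led by the transcription factor genes Klf2 (718 and 313 CPM) and Klf4 (282 and 126 CPM). The pocket protein gene Rbl1 (14.0 and 8.52 CPM) and E2f7 (1.28 and 0.471 CPM) were lower, as were Hist1h2ap (16 and 4.2 CPM) and Hist1h2ae (14.7 and 7.04 CPM). Histone genes of this cluster are near-identical copies, so their counts are uncertain.

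Outside the 42, the genes most like the core sum over the 14 class and library points, by Pearson's r of log2(CPM + 10) among 11286 genes with at least 200 UMIs, were 2810417H13Rik (0.985), Cdca8 (0.980), Kif20b (0.979), Kif15 (0.975), Spc25 (0.972), Smc2 (0.971), Cit (0.970), Ndc80 (0.970), Ttk (0.969) and Ncapd2 (0.967). Of these 10, 8 were in the list of further G2 and mitosis genes. The highest level of 2810417H13Rik was 277 CPM and its lowest 1.11 CPM.

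Cells outside the classes held cell cycle RNA too. In MC38, 378 kept cells passed no gate, with a core sum of 2416 CPM, and 80 of them (21.2%) had at least 3 mitotic members, against 9 of 60 in control. Those 80 cells had high levels of genes foreign to leukocytes: Tnnt2 was 390 CPM against 3.83 CPM over all kept cells, the chromatin gene Hmga2 338 against 3.01 CPM, the matrix genes Bgn 331 against 4.65 CPM and Sparc 366 against 8.55 CPM, and the transcription factor gene Sox9 216 against 5.67 CPM. The 298 ungated MC38 cells under 3 mitotic members had them too, at lower levels: 117 CPM of Tnnt2, 52.7 CPM of Hmga2, 166 CPM of Bgn, 186 CPM of Sparc and 21.6 CPM of Sox9. These genes were named after their values were seen, and the source of the cells was not tested.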

How the data were processed

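The deposited files hold whole-number UMI counts per gene and barcode for each of 2 libraries, per the file headers. The build GRCm38.p6, R 3.6.0, Seurat 2.3.4, STAR, Cell Ranger 2.2 and bcl2fastq are named in the submitters' processing notes without an order, while the matrix header names software 3.0.2. Only the deposited counts were analysed.

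Barcodes were dropped when they had under 200 genes, when over 10% of their UMIs came from the 13 mitochondrial genes, or when scrublet marked them as doublets (569 and 1727; expected rate 0.008 per 1000 barcodes). A cell was gated into 1 of 19 marker classes when at least 2 markers of the class were detected, their summed level reached 0.1 of that class's reference (the 90th percentile of cells with at least 3 of its markers) and was, relative to it, at least 2 times that of any class outside its lineage family (such as lymphoid or myeloid); other cells past the reference were set aside as mixed, and within a family the highest class was taken. CPM values are the UMIs of a gene over the cells of a class in 1 library, scaled to that class total over all genes. Folds are MC38 over control with exact conditional 95% intervals, and shares have exact binomial (Clopper-Pearson) intervals. A gene was called when the fold was at least 1.5 in either direction and its interval left out 1, given at least 20 UMIs in both libraries together. Cells were thinned to 1000 UMIs for shares, leaving out 101 control and 1573 MC38 cells with fewer. The fold script was tested on simulated counts.

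In each class the first 5 members called in each direction, ranked by the end of the interval nearest 0, were named, with Mki67, Top2a, Pcna, Mcm5, Stmn1, Hmgb2, Tubb5 and H2afz throughout, and the first 2 of each further list in each direction in T cells and in monocytes or macrophages. Members and lists were chosen with earlier results of these data known. Python 3.11.15, numpy 2.4.6, scipy 1.17.1, pandas 2.3.3, scanpy 1.11.5 and matplotlib 3.10.9 were used.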

Additional observations from a re-analysis of the deposited data

How the results depend on the processing

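The mitochondrial limit and thinning changed the most calls of members. The log2 fold of the core sum at limits of 5%, 30% and none, in this order, was -0.99, -0.62 and -0.50 over all kept cells, -0.30, 0.69 and 0.83 in T cells, -0.34, 0.36 and 0.46 in NK or ILC1, 0.19, 0.31 and 0.28 in monocytes or macrophages, -0.21, 0.13 and 0.18 in cDC1, and 0.10, 0.30 and 0.30 in cDC2. In B cells it was -0.54 and -0.29 at 30% and none. The 5% limit was not run for B cells (1 and 60 cells) and pDC (4 and 6 cells). Keeping doublets gave -1.09 over all kept cells and -0.11 in T cells. Thinning to 1000 UMIs gave -0.90 over all kept cells, 0.08 in NK or ILC1, -0.46 in B cells and -0.15 in cDC1. Scaling by the median ratio of genes gave -0.93 over all kept cells, -0.93 in B cells and 0.06 in monocytes or macrophages; the median of all genes lay at -0.15 over all kept cells and -0.13 in B cells. The mean over cells gave -0.98 over all kept cells, -0.18 in T cells, -0.45 in B cells, 0.11 in monocytes or macrophages and -0.14 in cDC1. Asking for 3 markers in the gate gave 0.74 in cDC2. The following were chosen after seeing the data, as were all settings for cDC1, cDC2 and single members: without the top cell of each library the fold was -0.74 in B cells and 0.13 in monocytes or macrophages, and with gate references from all cells it was -0.18 in T cells, -1.21 in B cells and 0.41 in monocytes or macrophages. In pDC all values run stayed within their interval. In monocytes or macrophages the 3 members called higher became 7, 11 and 10 at the limits of 5%, 30% and none. They became 6 without shared barcodes and 13 with gate references from all cells. The 4 called lower became 2 and 1 at 30% and none and 1 in thinned cells. The share of all genes called was not taken at these settings. The share of cells with at least 3 mitotic members, 8.85% and 6.48%, was 13.9% and 12% at 2 members, 6.47% and 3.49% at 5 members, 4.18% and 2.10% in thinned cells and 5.45% and 5.33% at the 30% limit. Of the 98 called member results, 49 lost the call and 5 turned without a mitochondrial limit, 41 and 2 at 30%, 23 and 1 at 5%, and 44 and 8 in thinned cells, where UMIs are few; some gave no value at 5% or thinned. Those that turned were Rrm2 (0.23 at 30%, 0.39 without a limit) and Kif11 (0.17 and 0.32) in T cells, Cdk1 (0.08 without a limit, 0.26 thinned) and Kif11 (1.16 thinned) in NK or ILC1, Mcm2 (0.08) and H2afz (0.18) in B cells without a limit, Ccnb1 (0.68), Bub1b (2.09), Cdc20 (0.51), Ube2c (0.19) and Cenpf (0.68) in thinned cDC1, and Prc1 in cDC2 (-0.08 at 5%, -1.86 thinned). Beyond the settings' construction, the cause was not tested. No paired analysis was possible because each group is 1 library.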
